A study of Homo sapiens with 6 samples.

Results

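The GALNT enzymes, the polypeptide N-acetylgalactosaminyltransferases that attach the first sugar of an O-glycan, were examined in PC3 cells with and without GCNT1 overexpression. The set was chosen by name as 10 genes, GALNT1, GALNT2, GALNT3, GALNT5, GALNT6, GALNT7, GALNT10, GALNT11, GALNT12 and GALNT14. Of these, 9 were among the 12703 genes analysed, and GALNT14 was not analysed here. The PC3 line comes from a bone metastasis of a prostate carcinoma. There were 3 libraries of PC3 cells made to express GCNT1 by stable lentiviral transduction (GCNT1 OE) and 3 of PC3 cells given the negative Lenti-ORF control particles (OEControl). Both groups therefore share the parental line and a lentiviral transduction. The promoter that drives the GCNT1 insert is not given in the sources used here. The labels call the libraries of a group biological replicates, and the study's methods describe them as separate stable lines, 3 per group. Whether each line came from its own transduction is not given in the sources used here, and p-values measure the spread between these libraries.

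O-glycosylation of the mucin type starts in the Golgi, where a GALNT enzyme transfers N-acetylgalactosamine (GalNAc) from UDP-GalNAc to a serine or threonine of a protein. The enzymes of this family differ in the peptides they accept. Some act on bare peptides, and others, among them GALNT7 and GALNT10, prefer peptides that already carry GalNAc. The sugar is then extended to core 1 by C1GALT1 with its chaperone C1GALT1C1, and GCNT1 adds the branch that turns core 1 into core 2. GALNT enzymes thus act upstream of the enzyme that was overexpressed.

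The libraries held 11392213 to 13825704 counts each. The raw counts of GCNT1 itself were 9, 13 and 8 without and 13, 16 and 35 with overexpression, and its log2 fold change was 0.98 (adjusted p = 0.0362, edgeR with Benjamini-Hochberg adjustment). In an exact permutation test over the samples p was 0.10 (two-sided), the smallest that 3 against 3 libraries allow. Without overexpressing replicate 3 the log2 fold change of GCNT1 was 0.49. The study also examined GCNT1 in its overexpressing PC3 cells by immunocytochemistry, sandwich ELISA and real-time PCR, which are not part of these counts. Of the epithelial markers, KRT8 and KRT18 were present at 202 to 253 CPM (counts scaled to a common library size with TMM factors, group means) and EPCAM at 5.54 to 5.91. Of 5 leukocyte markers 1 had values, CD68, and of 6 endothelial and stromal markers 3 did, PECAM1, COL1A1 and ACTA2. The summed level of the leukocyte list was 83.4 to 94.4 CPM in controls and 80.0 to 89.5 CPM in overexpressing libraries, and that of the endothelial and stromal list was 17.2 to 20.2 CPM and 15.1 to 17.8 CPM. PECAM1 was called higher (log2 fold change 1.31) and COL1A1 lower (log2 fold change -0.77), and the part of these markers in the results was not tested.

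Expression of GALNT12 and GALNT5 was almost lost in GCNT1 overexpressing cells, while the 7 other measured GALNT genes stayed within the fold change threshold. A gene was called where the Benjamini-Hochberg adjusted p of edgeR's quasi-likelihood fit over all genes was under 0.05 and the log2 fold change was beyond 0.58 in either direction, the limits that the study set. All adjusted p values here are from that test unless another is named. Of the 9 GALNT genes 0 were called higher and 2 lower, against 19.3% of all genes called in either direction, 8.28% higher and 11.1% lower. By the adjusted p value alone, 2 were higher (GALNT2 and GALNT6) and 3 lower (GALNT5, GALNT7 and GALNT12), against 57.6% of all genes past it, 28.3% higher and 29.3% lower. The groups did not overlap in 6 of the 9 genes, against 62.5% of all genes (30.9% higher and 31.6% lower), so the number of GALNT genes that moved was near the background. The median log2 fold change of the 9 genes was -0.05, with 0.00 over all genes. In bulk RNA, less transcript per cell and fewer cells with the transcript cannot be told apart.

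**Figure D1:**
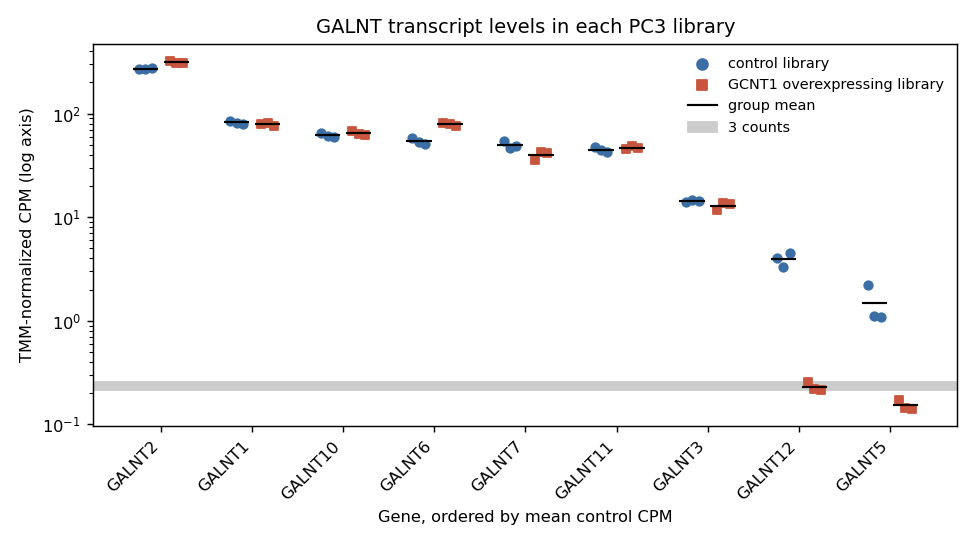
TMM-normalized CPM of the 9 GALNT genes on a log axis, with each point a library, each bar a group mean and the grey band the level of 3 counts. GALNT12 and GALNT5 lie at or under the band in the 3 overexpressing libraries and above it in the 3 controls, while GALNT2 has the highest level in each library.

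GALNT12 had 51, 41 and 53 reads in the controls but 3 reads in each GCNT1 OE library. Every overexpressing library was thus at the floor of 3 counts used here, which corresponds to 0.213 to 0.259 CPM and covers counting error only. GALNT12 encodes an enzyme that also acts on peptides already carrying GalNAc, and inherited variants of the gene have been linked to colorectal cancer. It averaged 3.94 ± 0.603 CPM (SD, n = 3) without overexpression and 0.230 ± 0.0254 CPM (SD, n = 3) with it. On the log2 scale the difference was -4.05 (standard error, SE, 0.31, edgeR adjusted p = 1.43e-07). From the summed counts, 145 against 9, the control level was 17.2 times that of the overexpressing cells, with an exact 95% interval of 8.83 to 38.4 for counting error only. Leaving out single libraries kept the log2 value between -4.17 and -3.95.

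In hg38 GALNT12 spans 98807670 to 98850081 on chromosome 9, and a long non-coding RNA overlaps its end on the opposite strand. The 50 analysed genes nearest to it, over 11.02 Mb, had a median of 0.42 (log2 fold change), with 14 of them called higher and 2 lower. GALNT12 therefore fell within a stretch of the chromosome whose median was higher. Relative to that local median its log2 fold change was -4.47, a value with no test of its own.

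The bases upstream of the RefSeq start of GALNT12 are shown because it is the GALNT gene with the largest fall. They are the 250 bases before the start on the plus strand of GRCh38.p14, chr9:98807420-98807669, with 2 motifs in capitals, GGGCGG (the core of a GC box) and CAGGTG (an E-box form), each searched on both strands.

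GALNT12: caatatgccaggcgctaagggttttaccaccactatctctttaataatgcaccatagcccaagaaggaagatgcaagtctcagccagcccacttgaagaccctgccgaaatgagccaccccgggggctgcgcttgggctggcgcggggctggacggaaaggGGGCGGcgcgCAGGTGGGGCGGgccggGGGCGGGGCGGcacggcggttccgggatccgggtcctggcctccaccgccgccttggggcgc

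The window held 4 matches of GGGCGG and 1 of CAGGTG, and 2 of the GGGCGG matches shared 1 base. Of 35116 such windows in the RefSeq table, 42.6% held GGGCGG at least once, 17.5% held CAGGTG and 7.34% held both. At least 4 GGGCGG matches occurred in 7.63% of them, and also in a window of GALNT1 (5 matches) and in that of GALNT10 (4 matches), genes that did not pass the test. Windows were given for 8 of the 10 GALNT genes, and GALNT5 and GALNT6 had none. Among the 11 windows of those genes GGGCGG occurred in 8 and CAGGTG in 3, the latter belonging to GALNT12, GALNT3 and GALNT14. GALNT3, with a match in its window, was at 14.3 ± 0.357 CPM (SD, n = 3) in controls and 12.9 ± 0.988 CPM (SD, n = 3) with overexpression. A match is a description of these letters and not a binding site.

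GALNT5 had 28, 14 and 13 reads in the controls but 2 reads in each GCNT1 OE library. Control replicate 1 stood above the other controls, and no control library came near the overexpressing ones. GALNT5 encodes a GALNT enzyme with an unusually long stem between its membrane anchor and its catalytic domain. It averaged 1.48 ± 0.643 CPM (SD, n = 3) without overexpression and 0.153 ± 0.0169 CPM (SD, n = 3) with it. Its fitted log2 fold change was -3.21 (SE 0.50, edgeR adjusted p = 9.11e-05), and it was -2.78 without control replicate 1. From the summed counts, 55 against 6, the control level was 9.80 times that of the overexpressing cells, with an exact 95% interval of 4.23 to 27.9 for counting error only. GALNT5 was therefore the lowest GALNT gene of the set in controls too, and its fall is known less precisely than that of GALNT12. In 94 of the 12703 genes, 0.74%, every overexpressing library was at 3 counts or fewer while the gene was called lower. GALNT5 and GALNT12 were among them. All 12703 genes pass edgeR's expression filter, so a gene this low with overexpression passes only through its control counts. The share is therefore no measure of how rare such falls are.

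GALNT5 lies on chromosome 2 from 157257705 to 157318491, and no other gene in GENCODE 44 of the protein-coding or lncRNA class overlaps it. GALNT3 lies on the same chromosome from 165747588 to 165794692. Around GALNT5 the median of the nearest 50 genes was 0.06 on the log2 fold change scale, and around GALNT3 it was 0.09. The large fall of GALNT5 was thus not seen in the median of its surroundings.

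**Figure D2:**
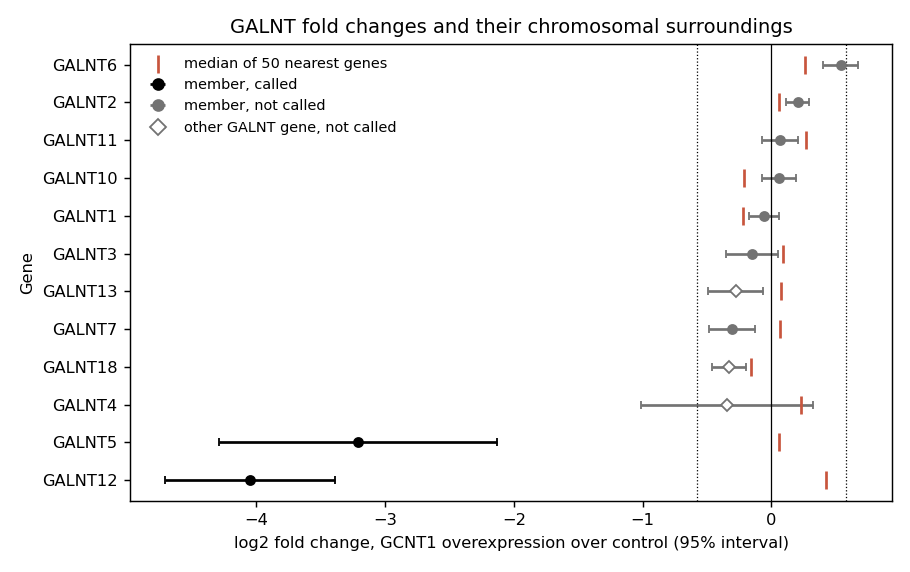
log2 fold change of each GALNT gene (GCNT1 overexpression over control) with its 95% interval from edgeR's fit, and the median of the 50 nearest analysed genes as a vertical mark; dotted lines stand at -0.58 and 0.58. Only GALNT12 and GALNT5 lie beyond the dotted lines with their whole interval, and the mark of GALNT12 lies at 0.42, on the opposite side of 0.

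GALNT6 was higher in GCNT1 overexpressing cells by just under the fold change threshold. It had 729, 664 and 604 reads without and 934, 1091 and 1072 reads with GCNT1 overexpression, and the lowest overexpressing library, at 76.0 CPM, was above the highest control at 57.9 CPM. GALNT6 is the closest relative of GALNT3 and is known from tumours, where fibronectin and MUC1 are among its described acceptors. It averaged 54.1 ± 3.49 CPM (SD, n = 3) without overexpression and 78.7 ± 2.44 CPM (SD, n = 3) with it, 1.45 times the control level. The log2 fold change was 0.54 (SE 0.06, 95% interval 0.41 to 0.67, edgeR adjusted p = 8.02e-06). With library size in place of TMM it was 0.60, and without control replicate 1 it was also 0.60, past the threshold in both. GALNT6 lies on chromosome 12 from 51351252 to 51391673, where the 50 nearest genes had a median of 0.27 (log2 fold change), and SLC4A8 overlaps it on the opposite strand.

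GALNT3, known for glycosylating the phosphate hormone FGF23, did not pass the test. It had 176, 183 and 169 reads without and 136, 187 and 187 reads with GCNT1 overexpression. After scaling, the overexpressing libraries (11.8 to 13.6 CPM) lay just under the controls (13.99 to 14.7 CPM). On the log2 scale the difference was -0.15 (95% interval -0.35 to 0.05, edgeR adjusted p = 0.185). The close relatives GALNT6 and GALNT3 thus had fold changes of opposite sign, of which only that of GALNT6 passed the adjusted p value, and the difference between them was not tested.

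GALNT2, an enzyme found in most tissues with many acceptor proteins, was the most abundant GALNT transcript and was slightly higher with GCNT1 overexpression. It had 3391, 3374 and 3224 reads without and 3692, 4267 and 4337 reads with GCNT1 overexpression. It averaged 271 ± 1.63 CPM (SD, n = 3) without overexpression and 312 ± 6.00 CPM (SD, n = 3) with it. Its fitted log2 fold change was 0.20 (SE 0.04, 95% interval 0.11 to 0.30, edgeR adjusted p = 0.00109), and the groups did not overlap. GALNT2 lies on chromosome 1 from 230057789 to 230282122, and antisense long non-coding genes overlap it. The scaling moved this value, to 0.26 with library size in place of TMM, an alternative under which the median of all genes was 0.06.

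GALNT1, the other broadly expressed enzyme of the family, showed no detectable difference. It had 1064, 1019 and 945 reads without and 919, 1118 and 1080 reads with GCNT1 overexpression, and the groups overlapped. It averaged 82.1 ± 2.32 CPM (SD, n = 3) without overexpression and 79.1 ± 2.43 CPM (SD, n = 3) with it. The log2 fold change was -0.05 (95% interval -0.17 to 0.06, edgeR adjusted p = 0.413), so that a change beyond the fold change threshold lies outside the interval. GALNT1 lies on chromosome 18 from 35580922 to 35711834, where the 50 nearest genes had a median of -0.22 (log2 fold change).

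Of the enzymes that follow on existing GalNAc, GALNT7 was lower and GALNT10 did not differ detectably. GALNT7 had 688, 575 and 569 reads without and 415, 586 and 589 reads with GCNT1 overexpression. The raw counts of the groups overlapped, but the scaled levels did not (46.2 to 54.7 CPM in controls and 35.9 to 42.7 CPM with overexpression). Its log2 fold change was -0.31 (SE 0.08, 95% interval -0.48 to -0.13, edgeR adjusted p = 0.00642). Its 95% interval lies within the fold change threshold. GALNT7 lies on chromosome 4 from 173168811 to 173323967, and the antisense gene GALNT7-DT overlaps its start.

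GALNT10 had 62.1 ± 2.89 CPM (SD, n = 3) in controls and 64.8 ± 3.00 CPM (SD, n = 3) with overexpression. Its counts were 823, 759 and 709 in controls and 788, 880 and 878 with overexpression, and the groups overlapped. On the log2 scale the difference was 0.06 (95% interval -0.07 to 0.19, edgeR adjusted p = 0.424). GALNT10 lies on chromosome 5 from 154190733 to 154420984. MFAP3 overlaps GALNT10 on the same strand, so reads in the shared part are uncertain.

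GALNT11, whose described acceptors include NOTCH1, did not differ detectably either. It had 597, 550 and 504 reads without and 531, 671 and 652 reads with GCNT1 overexpression, 44.7 ± 2.45 CPM against 47.0 ± 1.63 CPM (SD, n = 3 each). Its fitted log2 fold change was 0.07 (95% interval -0.07 to 0.21, edgeR adjusted p = 0.370). The gene lies on chromosome 7 from 152025674 to 152122340, where the 50 nearest genes had a median of 0.27 (log2 fold change).

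Levels were compared between genes as TMM-normalized CPM per kb of annotated exon (GENCODE 44). In controls the order was GALNT2, GALNT1, GALNT6, GALNT7, GALNT10, GALNT11, GALNT3, GALNT12 and GALNT5. GALNT2 had 35.1 ± 0.211 CPM per kb (SD, n = 3), GALNT1 16.0 ± 0.452, GALNT12 1.25 ± 0.190 and GALNT5 0.135 ± 0.0585 CPM per kb. Neighbours in this order whose control libraries overlapped were GALNT6 with GALNT7 and GALNT10 with GALNT11. With overexpression GALNT6 moved clear of GALNT7, to 10.7 ± 0.333 CPM per kb against 5.89 ± 0.542, and GALNT7 overlapped with both GALNT10 and GALNT11. With the longest transcript in place of all annotated exons, GALNT6 took place 6 in controls and place 3 with overexpression, while the first 2 and the last 3 places were the same.

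The summed level of the 9 genes was 81.6 ± 1.90 CPM per kb (SD, n = 3) in controls and 87.3 ± 1.35 CPM per kb (SD, n = 3) with overexpression, 1.07 times the control level. Without GALNT2 the sums were 46.5 ± 2.08 and 46.8 ± 1.10 CPM per kb. GALNT2 and GALNT6 made up more of the sum with overexpression, GALNT2 at 46.4% against 43.1% in controls and GALNT6 at 12.3% against 9.02%. GALNT1 made up 17.7% against 19.6%, and GALNT7 6.75% against 8.93%. GALNT12 held 1.53% of the sum in controls and 0.0832% with overexpression, and GALNT5 0.164% and 0.0160%. The 2 genes with large falls were thus minor parts of the family's transcripts in controls. These sums and shares are descriptions without a test.

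**Figure D3:**
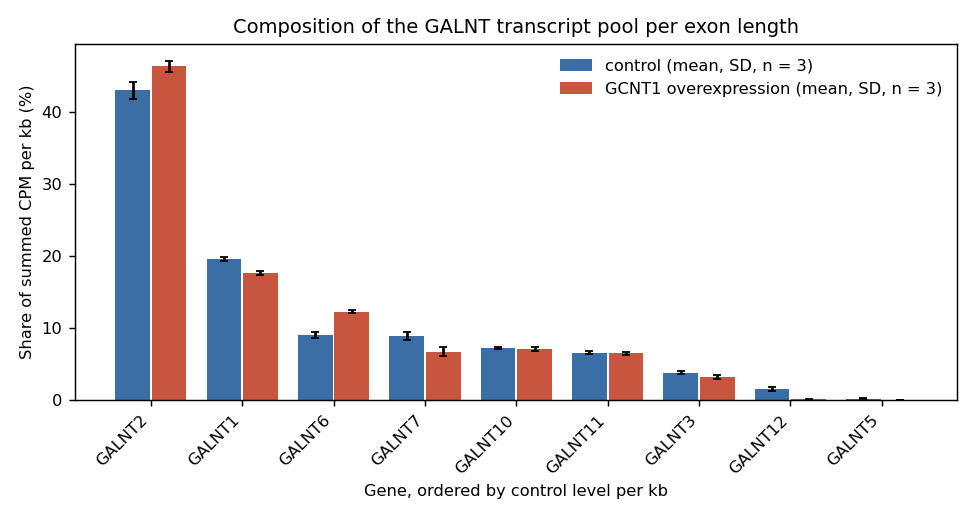
Share of each GALNT gene in the summed CPM per kb of the 9 genes, as bars of group means with SD over 3 libraries per group. GALNT2 makes up 43.1% in controls and 46.4% with GCNT1 overexpression, and GALNT12 goes from 1.53% to 0.0832%.

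The family holds further enzymes outside the chosen set, and 3 of 10 of these had values, GALNT4, GALNT13 and GALNT18. Of these 3, 0 were called, against 19.3% of all genes, and 2 were lower by the adjusted p value alone, against 29.3%. GALNT18 had 717, 733 and 661 reads without and 550, 633 and 614 reads with GCNT1 overexpression (log2 fold change -0.33, SE 0.06, edgeR adjusted p = 0.000457). GALNT13, the closest relative of GALNT1 and best known from neurons, had 216, 229 and 178 reads without and 151, 202 and 197 with GCNT1 overexpression (log2 fold change -0.28, edgeR adjusted p = 0.0270). Under DESeq2 the adjusted p of GALNT13 was 0.0767, and with each library left out in turn it passed in 2 of 6 edgeR fits. GALNT4, the closest relative of GALNT12, was counted 7 to 15 times per library (log2 fold change -0.34, 95% interval -1.01 to 0.33). That interval reaches past the threshold, so at this depth neither a called fall nor its absence can be read for GALNT4.

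The enzymes that take the GalNAc further were followed as a list. Of 8 measured genes of this list 2 were called higher, against 8.28% of all genes, GCNT1 (the overexpressed gene itself) and GCNT3. Another 2 were called lower, against 11.1% of all genes, ST3GAL1 and ST6GALNAC2. Under DESeq2 GCNT1 was not called, which left 3 called genes in the list. The median log2 fold change of the list was 0.27. Over this list and the 6 others described here, 11 of 61 genes were called, near the 19.3% of all genes, so nothing particular to the lists is read from their counts. ST3GAL1, which caps core 1 with sialic acid, fell from 707 ± 18.5 to 172 ± 9.998 CPM (SD, n = 3 each; log2 fold change -2.04). ST6GALNAC2, which adds sialic acid to the GalNAc itself, fell from 44.8 ± 0.921 to 16.5 ± 1.21 CPM (log2 fold change -1.44). GCNT3, a relative of GCNT1 that makes core 2 and core 4 branches, rose from 1.65 ± 0.442 to 6.20 ± 0.852 CPM (log2 fold change 1.91). C1GALT1 and C1GALT1C1, the step straight after the GALNT enzymes, were higher under the fold change threshold (log2 fold changes 0.26 and 0.51, edgeR adjusted p = 0.00468 and 2.18e-05).

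The genes that supply UDP-GalNAc were not called, 0 of 8 genes against 19.3% of all genes. By edgeR's adjusted p value alone 2 of them were higher and 2 lower, against 28.3% and 29.3% of all genes, and DESeq2 called none of the 8 either. GFPT2, an isoform of the first enzyme of the hexosamine pathway, had a log2 fold change of -0.52, while GALK2, the GalNAc kinase of the salvage route, had 0.32. The most abundant of the list, GNPNAT1, was at 235 and 245 CPM. Of the 12 genes of the COPI coat, its regulators and SRC, a kinase described to move GALNT enzymes out of the Golgi, 1 was called, against 19.3% of all genes. By the adjusted p value alone 3 were higher and 4 lower, near the 57.6% of all genes past it. That gene was COPZ2, an isoform of a small coat subunit, with 2, 6 and 7 counts in controls and 64, 83 and 78 with overexpression (log2 fold change 3.78). SRC stood at -0.41 on the log2 fold change scale (edgeR adjusted p = 6.92e-06) and ARF1, the most abundant of the list, 0.21. Beside COPZ2, the coat subunits past the adjusted p value were COPA at -0.31, ARCN1 at -0.21, COPB1 at -0.18 and COPZ1 at 0.34.

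Enzymes that start other O-linked sugars were compared as a list of like function. Of 10 measured genes 1 was called, against 19.3% of all genes. It was EOGT, which puts O-linked GlcNAc on secreted proteins and rose from 7.56 ± 0.348 to 29.7 ± 1.85 CPM (SD, n = 3 each; log2 fold change 1.97). The other 9 lay between -0.06 and 0.39 on the log2 fold change scale. Of these, 4 were higher by the adjusted p value alone, POFUT2 (0.39), POGLUT2 (0.33), OGT (0.31) and POGLUT1 (0.27), and 0 were lower. With EOGT that makes 5 of 10 higher, against 28.3% of all genes higher and 29.3% lower by this measure. POFUT1, the most abundant, was at -0.05. A further list held enzymes of GalNAc-containing glycolipids, N-glycans, O-mannose glycans and chondroitin chains. Of its 10 measured genes 2 were called, against 19.3% of all genes, B3GALNT1 lower (log2 fold change -0.65) and CHPF2 higher (log2 fold change 0.69). CHPF2 is known as a glucuronyltransferase of chondroitin synthesis. B3GALNT1 was at -0.58 and not called without overexpressing replicate 1. CHPF, with the highest CPM of the list over all 6 libraries though under B3GALNT1 in controls, averaged 140 CPM in controls and 175 CPM with overexpression (log2 fold change 0.32). B4GALNT1, the ganglioside enzyme, was just inside the threshold at 0.575, and past it with library size in place of TMM (0.63) and without control replicate 3 (0.60), overexpressing replicate 1 (0.59) or overexpressing replicate 2 (0.62).

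Proteins described as acceptors of single GALNT enzymes were called in both directions, with 2 of 10 higher and 1 lower, against 8.28% and 11.1% of all genes. NOTCH1, linked to GALNT11, rose from 18.1 ± 0.540 to 42.7 ± 2.26 CPM (SD, n = 3 each; log2 fold change 1.24). The 50 genes nearest to NOTCH1 had a median of 0.61 (log2 fold change), with 25 of them called higher and 1 lower. TNFRSF10A, a death receptor linked to GALNT14, rose from 13.98 ± 1.59 to 23.5 ± 0.974 CPM (log2 fold change 0.76). FN1, fibronectin, linked to GALNT6, fell from 1247 ± 65.2 to 525 ± 48.4 CPM (log2 fold change -1.25). The transcript of GALNT11 did not differ detectably while that of NOTCH1 rose, and the transcript of GALNT6 was higher while that of FN1 fell. MUC1, a target of GALNT6, was at 4.05 ± 0.618 CPM in controls and 4.31 ± 0.387 CPM with overexpression, and its groups overlapped.

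**Figure D4:**
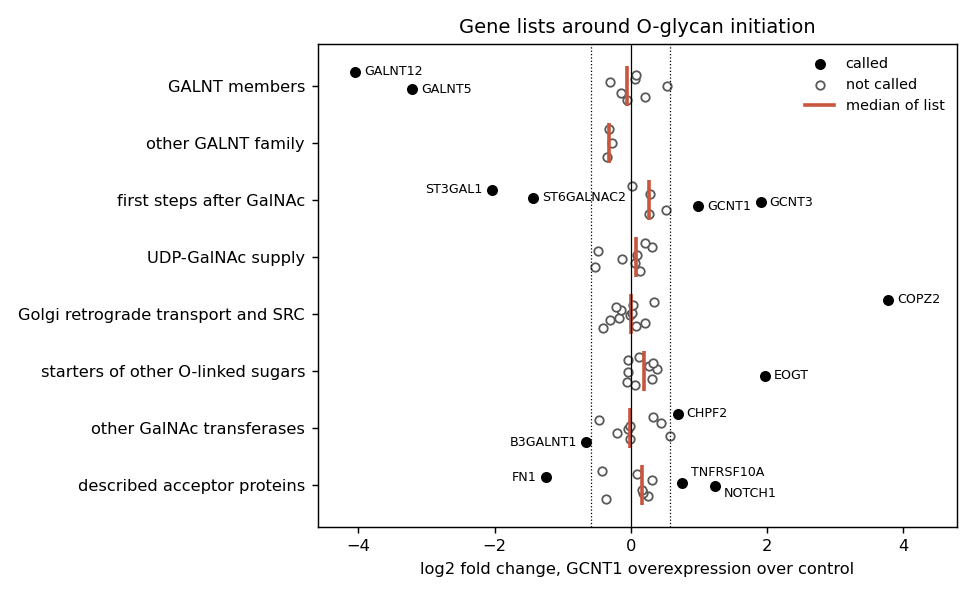
log2 fold change (GCNT1 overexpression over control) of every measured gene in the GALNT set and in 7 lists around it, with called genes filled and named and each list's median as a red bar. The GALNT set holds the 2 called falls GALNT12 and GALNT5 and a median of -0.05, and the list of the next enzymes holds called genes on both sides.

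The genes outside the family whose log2 CPM profile over the 6 libraries was most like that of GALNT12, after each was centred on its own mean, were ISM1, TRABD2B and CCNA1, with root mean square differences of 0.09, 0.10 and 0.11 on the log2 scale. These log2 CPM values carry a prior count of 2, which draws genes at 0 counts together with genes at a few counts. The fitted log2 fold changes were further apart, at -7.15 for ISM1 and -7.20 for TRABD2B against -4.05 for GALNT12, and depend on the prior count used in the fit. ISM1 had 19, 14 and 18 reads without overexpression and 0 in each GCNT1 OE library. TRABD2B was also at 0 there, and CCNA1, cyclin A1, went from 100 to 127 counts to 11 or 12. For GALNT5 the nearest profiles were LINC01133, CSPG5 and EML6, at 0.17, 0.19 and 0.21. LINC01133, a long non-coding RNA, had 23, 14 and 14 reads without and 2, 2 and 1 with GCNT1 overexpression. Its control replicate 1 was the highest too, which a choice by likeness to GALNT5 favours. Likeness over 6 libraries in 2 groups mostly reflects the difference between the groups.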

How the data were processed

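RNA of PC3 cells, 3 control and 3 GCNT1 OE samples, was sequenced by the authors as stranded mRNA libraries (single reads of 75 bp), trimmed with Cutadapt, mapped to hg38 with HISAT2 and counted with featureCounts. What the authors deposited are raw counts by Entrez gene, one column per sample, not normalized. The annotation, the strand setting and any filter are not given in the sources used here. Of 12703 genes, 12661 were matched to a RefSeq symbol (GRCh38.p14).

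The groups were compared with the quasi-likelihood test of edgeR 4.0.16 under R 4.3.3, with TMM factors and Benjamini-Hochberg adjustment (filterByExpr kept every gene). Intervals of fold changes were taken from the fitted fold change, its standard error and the t distribution of the fit. Alternatives were limma-voom (limma 3.58.1), the study's own test, DESeq2 1.42.0, glmTreat, a block for the replicate number, scaling by RLE factors or by library size alone, either no filter or a minimum of 10 counts in every library, and leaving out single libraries. Libraries of a group differed by more than sampling noise (chi-square per degree of freedom 1.65 to 5.57). Python 3.11.15 was used for levels and intervals, with exon lengths and overlaps from GENCODE 44.

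The GALNT genes and the gene lists, written from general knowledge, were chosen with earlier results of these data known. Named genes were every GALNT gene with values, GCNT1, each called gene and the most abundant gene of each list, and the 3 nearest profiles of each called GALNT gene. Other list members were named after their values were seen, and some are not reported here by name. The test was checked on simulated counts in which far fewer genes changed than here. That check therefore does not cover a difference as broad as the one in these data.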

Additional observations from a re-analysis of the deposited data

How the results depend on the processing

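GALNT12 and GALNT5 were called lower in all 13 alternatives that tested them, with log2 fold changes of -4.17 to -3.89 and -3.38 to -2.78. The alternative without a filter repeats the main fit, because the filter removed no gene, and so adds nothing to such counts. At least 10 counts in every library removes both by construction, so that the number of GALNT genes called was then 0 (0 lower), and the number past the adjusted p value alone was 3. The number called higher was 1 (GALNT6) with library size alone, and ran from 0 to 1 with each library left out. GALNT1 turned from -0.05 to 0.0037 with library size alone (adjusted p = 0.962 in edgeR's test). The numbers 1 to 3 do not pair the libraries (correlations of deviations -0.27, 0.00 and -0.11 for same-numbered libraries), and with the replicate block 2 GALNT genes were called and 5 passed the adjusted p value, the numbers found without it. GCNT1 was no longer called under DESeq2 (log2 fold change 0.98, adjusted p = 0.0821 from DESeq2), glmTreat (0.98) or with 3 of the 6 libraries left out (range of all 6, 0.49 to 1.21). The 7 gene lists held 11 called genes, and 7 with glmTreat, which tests against the fold threshold itself and called 1392 of all genes in place of 2457. B3GALNT1, CHPF2 and TNFRSF10A were lost there, as was COL1A1, a marker outside these lists. With library size alone all genes split into 1283 higher and 1230 lower, against 1052 and 1405 with TMM. The log2 ratio of the summed GALNT level was 0.10, and 0.15 with library size alone. B4GALNT1 was called in 4 of its 14 alternatives, which include the repeat without a filter. Low counts limit GCNT1, GALNT4, GALNT5, GALNT12 and COPZ2. COPZ2 too drops out with at least 10 counts in every library, which leaves 0 called genes in its list.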

Other observations

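GALNT9-AS1, the antisense transcript of the GALNT9 locus, was singled out after its values were seen. It had 16, 18 and 18 reads without and 10, 10 and 9 reads with GCNT1 overexpression, 1.41 ± 0.129 against 0.743 ± 0.114 CPM (SD, n = 3 each). The groups did not overlap, and the gene was called lower (log2 fold change -0.93, standard error 0.28, edgeR adjusted p = 0.0108). GALNT9 itself was not analysed here.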
